A study of Mus musculus with 27 samples.

Results

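The MEF2 transcription factor genes measured here were Mef2a, Mef2c and Mef2d, and the class IIa histone deacetylase genes were Hdac4, Hdac5, Hdac7 and Hdac9. These 7 of the 31053 genes in the count files were chosen by name, because the proteins of both families bind each other. The rule itself uses no measured value, but the families were picked with earlier results of these data known. Their transcripts were counted in 204852 single nuclei of the hippocampus from 27 mice, with 1 library per mouse. The mice carried or lacked the P301S tau transgene, a human tau with a mutation of frontotemporal dementia that is driven by the mouse Prnp promoter and is therefore made widely in the brain, and they differed in the number of functional Cgas alleles. Cgas encodes cyclic GMP-AMP synthase, an enzyme that senses cytosolic DNA. Without the transgene there were 5 Cgas+/+ mice, of which 2 were female, and 2 male mice each of Cgas+/- and Cgas-/-. With it there were 3 females and 3 males in every group, P301S Cgas+/+, P301S Cgas+/- and P301S Cgas-/-. The sequenced mice were 8 to 9 months old by one description and 9 to 10 months old by the methods. The nuclei came from frozen hippocampi and were stained for DNA and sorted to clear away debris.

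MEF2 proteins bind DNA through a MADS-box domain and activate genes that neurons switch on with calcium entry, including immediate early genes and genes that limit the number of excitatory synapses. Class IIa histone deacetylases have little enzymatic activity of their own. They sit on MEF2, bring in a corepressor complex with HDAC3, and leave the nucleus bound to 14-3-3 proteins when calcium-dependent, protein kinase D or salt-inducible kinases phosphorylate them. Calcineurin, the calcium-dependent phosphatase, dephosphorylates MEF2 and the deacetylases. MEF2C is also a lineage factor of microglia and of cortical and parvalbumin neurons, HDAC7 is known from endothelial and lymphoid cells, and Hdac9 gives rise to a truncated form without the deacetylase domain that the counts cannot tell from the full-length form.

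The libraries held 5840 to 12572 nuclei and 29909431 to 57937312 unique molecular identifiers (UMIs, 1 per captured transcript), and the median nucleus of a library held 1761 to 7618 UMIs. Clusters were named from marker genes, and the names therefore mean "like" the type. Of 7 excitatory, 8 microglial and 7 dentate granule markers, 6, 8 and 7 were highest in the type named for them, whereas 0 of 6 markers of the cluster set called cortical upper layer were highest there. In the library P301S Cgas+/+ replicate 3, 52.8% of nuclei fell in clusters left unnamed. Cgas (listed as Mb21d1) averaged 51.7 ± 7.26 counts per 1000000 UMIs (CPM) in microglia of P301S Cgas-/- mice (SD, n = 6) and 37.5 ± 11.3 CPM in P301S Cgas+/+ mice (SD, n = 6). Without the transgene the means in microglia were 27.6 CPM in Cgas-/- mice (n = 2) and 34.6 CPM in Cgas+/+ mice (n = 5). Whether the counted 3' tags lie in the deleted part of the gene was not tested. These counts therefore do not check the knockout, and the genotypes are used as labelled. Mbp, the myelin basic protein gene, averaged 4596 CPM in oligodendrocytes, 96.4 CPM in excitatory nuclei, 34.5 CPM in inhibitory nuclei and 20.7 CPM in astrocytes. Slc17a7, a transcript of excitatory neurons, averaged 148 CPM in excitatory nuclei, 47.8 CPM in endothelial nuclei, 40.1 CPM in microglia and 33.5 CPM in oligodendrocytes. Its means were 18.8 CPM in astrocytes and 9.55 CPM in inhibitory nuclei. Whether RNA crossed between nuclei was not tested. Between 2 libraries, at most 48 barcodes were shared.

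The members lie on 7 chromosomes of GRCm38: Mef2a at chr7:67231163-67372858 on the minus strand, Mef2c at chr13:83504034-83667080 on the plus strand, Mef2d at chr3:88142372-88172086 on the plus strand, Hdac4 at chr1:91928779-92195699 on the minus strand, Hdac5 at chr11:102194432-102230166 on the minus strand, Hdac7 at chr15:97792664-97844502 on the minus strand and Hdac9 at chr12:34047580-34917095 on the minus strand. RefSeq (GRCm38.p6) promoter windows of 300 bases, from 250 before to 50 after a start site, were found for 7 of 7 members, 13 windows in all. A search of both strands for the MEF2 element matched in 2 of these 13 windows, or 15.4%, and in 1047 of all 32851 windows, or 3.19%. Both are shown because each places the binding letters of the family's own factors beside a start site of a family gene. Each line runs 5′ to 3′ on the gene's strand, from 140 bases before the start site to 10 bases after it, with the element in capitals.
Mef2a, chr7:67372849-67372998, minus strand: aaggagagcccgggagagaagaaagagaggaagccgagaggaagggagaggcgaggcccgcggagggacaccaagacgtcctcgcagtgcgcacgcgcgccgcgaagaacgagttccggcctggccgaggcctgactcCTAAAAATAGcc
Hdac5, chr11:102230163-102230312, minus strand: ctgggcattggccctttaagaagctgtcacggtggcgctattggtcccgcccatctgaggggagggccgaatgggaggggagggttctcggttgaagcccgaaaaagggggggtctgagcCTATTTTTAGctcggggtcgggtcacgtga
The element began 2 bases before the start site in Mef2a and 20 bases before it in Hdac5. None of the 3 windows of Mef2c held one. Among the pathway genes with a window, Ywhah, Jun and Kcnj9 held one and 0 of 18 kinase genes did. Over all genes with a window, 1001 of 27025 held one, or 3.70%. Whether any list differed from that share was not tested. These matches describe letters only, and binding was not measured.

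Levels are given as CPM, a gene's UMIs per 1000000 UMIs summed over the nuclei of a type in 1 mouse, with types of under 20 nuclei in a mouse left out. Such 3' counts depend on the transcript, so each gene was compared with itself over 24 named types. T cells, with enough nuclei in only 3 mice, were left out of this order. Highest and lowest levels below refer to the 24 types. Mef2c had the widest range of the 7, with its highest mean 61.0-fold above its lowest. Its highest levels were in microglia at 1625 ± 176 CPM (SD, n = 27), cortical layer 4 neurons at 1343 ± 157 CPM (n = 17), parvalbumin (Pvalb) interneurons at 1087 ± 93.3 CPM (n = 27) and the upper-layer set at 889 ± 228 CPM (n = 20). Each of these stood above the next in a paired permutation test over the mice that held both (microglia over layer 4 in 14 of 17 mice, adjusted p = 0.00924; layer 4 over Pvalb in 15 of 17, adjusted p = 0.00154; Pvalb over upper layer in 17 of 20, adjusted p = 0.00924). Within the hippocampal formation Mef2c was split by field. Dentate granule nuclei held 359 ± 35.6 CPM (SD, n = 26; range 285 to 444), CA1 nuclei 41.8 ± 17.4 CPM (n = 27; range 26.8 to 110) and CA3 nuclei 26.6 ± 11.9 CPM (n = 21). CA1 was above CA3 in 19 of 21 mice (paired permutation test, adjusted p = 0.00154). Cortical layer 6 nuclei varied widely for their mean, at 227 ± 189 CPM and between 51.0 and 825 CPM over 25 mice.

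Mef2a and Mef2d shared the microglial peak and were flatter among neurons. Mef2a was at 1670 ± 255 CPM in microglia (SD, n = 27), at 419.8 ± 64.3 CPM in endothelial nuclei (n = 16) and at 82.3 ± 20.4 CPM in cortical layer 5 neurons (n = 14), a 20.3-fold range. Microglia were above endothelial nuclei in 16 of 16 mice (paired permutation test, adjusted p = 0.000939). Mef2d ranged 3.90-fold, from 239 ± 34.6 CPM in microglia (SD, n = 27) to 61.2 ± 29.4 CPM in ependymal nuclei (n = 11). Its second level was in dentate granule nuclei, 169 ± 20.2 CPM (SD, n = 26), below microglia in 26 of 26 mice (paired permutation test, adjusted p = 0.000513). In excitatory nuclei as a whole, Mef2a varied little over mice, from 129.7 to 172 CPM, where Mef2c ran from 191 to 1003 CPM.

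The 4 deacetylase genes each peaked in a different type. Hdac9 was highest in Lamp5 interneurons, neurogliaform-like cells, at 1522 ± 220 CPM (SD, n = 27), above the upper-layer set at 1123 ± 155 CPM in 20 of 20 mice (paired permutation test, adjusted p = 0.000513), and lowest in oligodendrocytes at 154 ± 41.2 CPM (n = 27). Hdac7 was highest in endothelial nuclei at 216 ± 60.3 CPM (SD, n = 16), above cortical layer 4 neurons in 10 of 10 mice (paired permutation test, adjusted p = 0.0200). Its lowest level was in microglia at 12 ± 6.3 CPM (SD, n = 27), the type with the highest Mef2a, Mef2c and Mef2d levels of those genes, and it was almost as low in CA1 nuclei at 17.0 ± 9.68 CPM (n = 27). Hdac4 was at 295 ± 37.8 CPM in CA2 nuclei (SD, n = 7), 261 ± 41.7 CPM in somatostatin (Sst) interneurons (n = 26) and 232 ± 29.3 CPM in CA3 nuclei (n = 21), and neither neighbouring pair reached an adjusted p under 0.05. Dentate granule nuclei held only 74.4 ± 10.5 CPM of Hdac4 (SD, n = 26), below oligodendrocytes in 22 of 26 mice (paired permutation test, adjusted p = 0.000513). Hdac5 was sparse throughout, between 15.9 ± 8.0 CPM in ependymal nuclei (SD, n = 11) and 56.3 ± 16.3 CPM in Vip interneurons (n = 27), and 0 of its 21 tested neighbour pairs had an adjusted p under 0.05. Over the 7 genes, 20 of 154 tested neighbour pairs had an adjusted p under 0.05, 6 each for Mef2a and Mef2c, 2 each for Mef2d, Hdac4, Hdac7 and Hdac9.

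**Figure D1:**
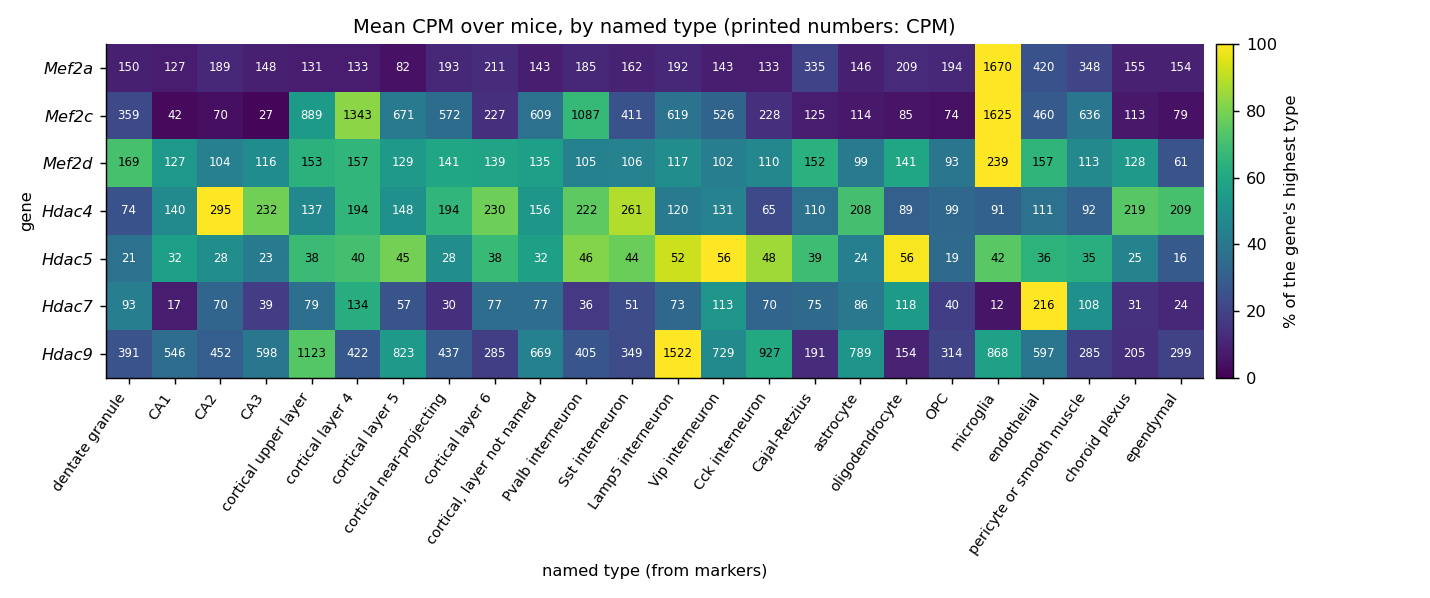
Mean level of each gene over mice in 24 named types, with CPM printed in each cell and the colour showing the percentage of that gene's own highest type. T cells are left out. Mef2a, Mef2c and Mef2d peak in microglia (1670, 1625 and 239 CPM), where Hdac7 is at its lowest (12 CPM), and Mef2c falls from 359 CPM in dentate granule to 42 CPM in CA1 and 27 CPM in CA3.

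Among 14542 genes, those whose mean log2(CPM + 1) followed each member most closely over 25 types, T cells included, were listed. They are given as a description with no test, since the types share mice and libraries. For Mef2a they were Gsdmd (Pearson r = 0.906), Fes (0.890) and Xlr (0.885), and for Mef2d Mapk14 (0.859), Ciz1 (0.840) and Usp15 (0.838). Mapk14 encodes the p38 alpha kinase. The closest to Mef2c were Ptchd1 (r = 0.679), Ttc17 (0.666) and Fbxo42 (0.658), lower correlations than those of the other MEF2 genes. The closest to Hdac4 were Pfkp (r = 0.722), Uhrf1bp1l (0.721) and Itga2 (0.681), and to Hdac5 Usp36 (0.832), Sv2a (0.818) and Atp6ap1 (0.803). Hdac7 was followed by Sptbn1 (r = 0.690), Lysmd2 (0.654) and Gm29237 (0.616), and Hdac9 by E2f3 (0.698), Kcnn2 (0.682) and A330093E20Rik (0.634).

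Whether the tau transgene and loss of Cgas were accompanied by a different Mef2c level was read first in all excitatory nuclei. The 5 Cgas+/+ mice held 234, 296, 315, 358 and 436 CPM of Mef2c, the Cgas+/- mice 245 and 383 CPM, and the Cgas-/- mice 201 and 207 CPM. P301S Cgas+/+ mice ran from 191 through a median of 271 to 525 CPM (n = 6). P301S Cgas+/- mice ran from 330 through 493 to 1003 CPM (n = 6), and P301S Cgas-/- mice from 250 through 465 to 772 CPM (n = 6). The mice with the transgene and at most 1 Cgas allele were thus mostly higher than P301S Cgas+/+ mice, but the ranges overlapped.

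In edgeR's quasi-likelihood test over the 23 mice of the 4 larger groups, Mef2c in excitatory nuclei differed by a log2 of -0.18 (SE 0.26, adjusted p = 1.0) between P301S Cgas+/+ and Cgas+/+, by 0.75 (SE 0.25, adjusted p = 0.234) between P301S Cgas-/- and P301S Cgas+/+, and by 0.92 (SE 0.25, adjusted p = 0.171) between P301S Cgas+/- and P301S Cgas+/+. The last 2 comparisons share the P301S Cgas+/+ mice. None passed the threshold of an adjusted p under 0.05 over all genes tested. In DESeq2 the last difference was 0.91 with an adjusted p of 0.0404. Without the library with most nuclei unnamed, P301S Cgas+/+ replicate 3, the 3 differences were -0.24, 0.80 (edgeR, adjusted p = 0.237) and 0.98 (adjusted p = 0.146). Within the libraries of software version 3.0.2 in the file headers (2 mice per group) the means of log2(CPM + 1) differed by 0.42, 0.61 and 0.96, and within version 3.1.0 (3 or 4 mice per group) by -0.57, 0.87 and 0.97, so the tau difference changed sign between the versions. Over the 7 classes of nuclei, 0 of 48 tested pairs of member and class passed in each of the 3 comparisons, beside 0.00915% of all gene tests called for the tau comparison and 0% for both others. At an unadjusted p under 0.05 there were 3, 4 and 6 pairs of 48, in that order, beside 6.68%, 6.33% and 5.38% of all gene tests. DESeq2 called the 1 named above, in a fit where it called 1.04% of all genes. The remaining pair, Hdac5 in endothelial nuclei, fell below the count filter.

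**Figure D2:**
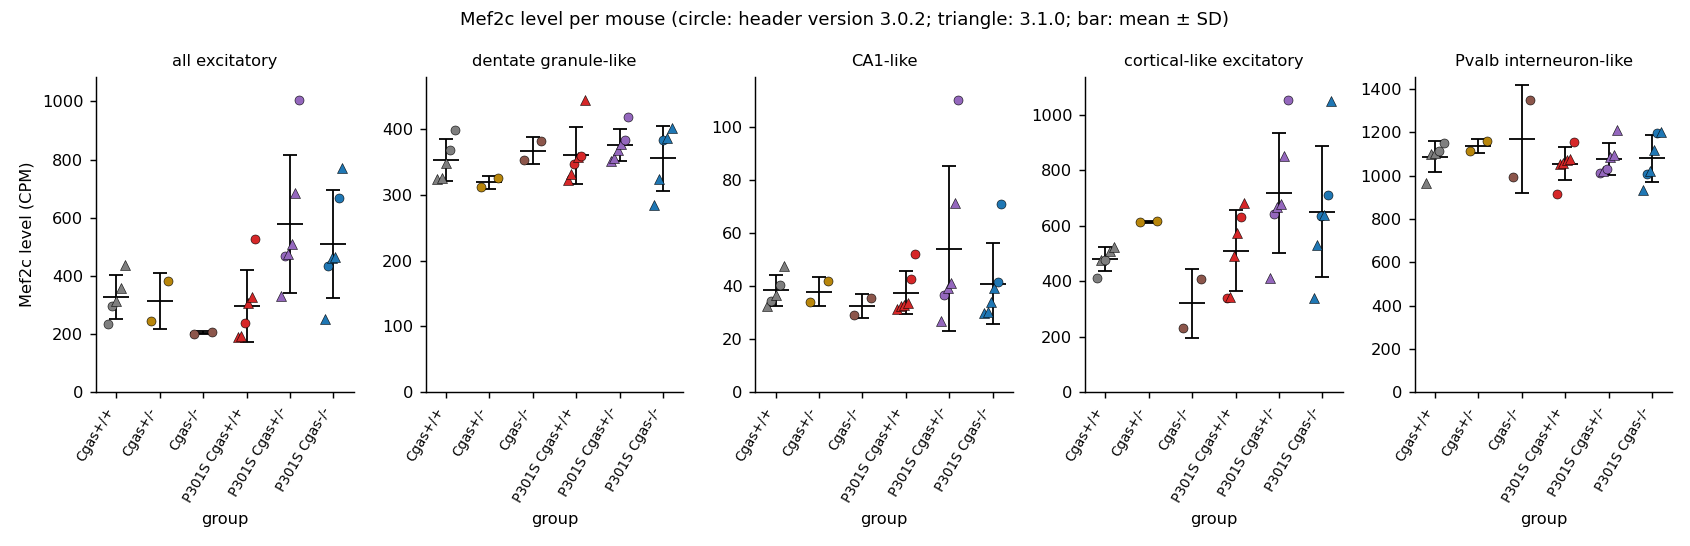
Mef2c level in CPM for each mouse in the 6 groups, in all excitatory nuclei, in 3 excitatory subtypes and in Pvalb interneurons (circles and triangles: software version 3.0.2 and 3.1.0 in the file headers, bars: mean ± SD). In all excitatory nuclei P301S Cgas+/- and P301S Cgas-/- mice reach 1003 and 772 CPM, whereas in dentate granule nuclei the groups of mice lie at means of 353 to 376 CPM in the 4 larger groups.

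The nuclei summed as excitatory were not the same mixture in each mouse. Cortical-like neurons, whose Mef2c level is many times that of CA1 and CA3 nuclei, made up 20.7% to 79.0% of excitatory nuclei in Cgas+/+ mice (n = 5), 6.13% to 84.2% in P301S Cgas+/+ (n = 6), 54.2% to 95.5% in P301S Cgas+/- (n = 6) and 47.1% to 93.1% in P301S Cgas-/- mice (n = 6). Dentate granule nuclei also held more Mef2c than CA1 and CA3 nuclei, with a mean above that of cortical layer 6 nuclei. Some excitatory subclusters were unnamed at first and were called cortical-like only in a second, looser pass that pooled all cortical markers. Of these, the subclusters of 1081 and 340 nuclei had the subiculum, a field of the hippocampal formation, as their closest list. For that of 1520 nuclei it was a close second. The cortical-like share may therefore hold some subicular nuclei. The mean cortical-like shares of P301S Cgas-/- and P301S Cgas+/+ mice were 69.5% and 37.5%, a difference of 31.9 percentage points (exact two-sided permutation test, p = 0.0498). For P301S Cgas+/- the difference was 30.4 points (exact permutation p = 0.0649), and for P301S Cgas+/+ against Cgas+/+ it was -12.4 points (exact permutation p = 0.461). Within software version 3.0.2 the 3 differences, in the order just given, were 8.92, 9.41 and 34.0 points (2 mice against 2, for which the smallest exact p is 0.333), and within version 3.1.0 they were 43.5, 40.9 and -38.7 points (exact permutation p = 0.0571, 0.0571 and 0.0857). The smallest p that 6 against 6 or 6 against 5 mice allow is 0.00216. The p values of the share are not adjusted over the 3 comparisons, and the permutation test held no term for sex. P301S Cgas+/+ females held shares of 6.13%, 11.3% and 21.0%, all below the males at 46.8%, 55.8% and 84.2%. In P301S Cgas-/- mice the females held 47.1%, 62.1% and 88.0% and the males 55.6%, 70.9% and 93.1%. The gap between these 2 groups was thus much wider in females than in males. For the difference of 31.9 points the exact permutation p was under 0.05 in only 3 of the 12 repeats that left out 1 mouse. These were the repeats without P301S Cgas+/+ replicate 1, P301S Cgas+/+ replicate 6 or P301S Cgas-/- replicate 4.

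Over the 27 mice, the Mef2c level in excitatory nuclei rose with the cortical-like share, with a Pearson r of 0.872 (permutation p = 1e-05, the smallest that 100000 resamples can give; adjusted p = 3.5e-05 over the 7 relations computed) and a Spearman rho of 0.915 (permutation p = 1e-05, adjusted p = 7e-05). Without the 2 mice farthest from the median share, r was 0.847. Within the groups of 6 it was 0.879, 0.943 and 0.673 (P301S Cgas+/+, P301S Cgas+/- and P301S Cgas-/-), and within the libraries of software version 3.0.2 and 3.1.0 it was 0.907 and 0.828. The Hdac4 level rose with the share as well (r = 0.739, permutation adjusted p = 3.5e-05; 0.855 and 0.698 within the versions), as did Hdac7 (r = 0.603, adjusted p = 0.00231) and Hdac5 (r = 0.539, adjusted p = 0.00740). The Spearman rho of these 3 genes was 0.75, 0.596 and 0.527, each with a permutation adjusted p under 0.05. Mef2a had an r of 0.414 (permutation adjusted p = 0.0452), which fell to 0.333 without the 2 farthest mice, and its rho of 0.372 did not pass (permutation adjusted p = 0.0802). Over all mice r was 0.0134 for Mef2d and 0.0542 for Hdac9, but within groups it differed in sign. With the groups of 6 in the order used above, r was 0.606, -0.723 and -0.787 for Hdac9 and -0.47, -0.66 and 0.18 for Mef2d (n = 6 each). In the same order it was 0.71, 0.714 and 0.889 for Hdac4, 0.706, 0.789 and 0.277 for Hdac7, 0.856, -0.10 and 0.407 for Hdac5 and 0.602, 0.336 and 0.432 for Mef2a. These values within groups are a description with no test.

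**Figure D3:**
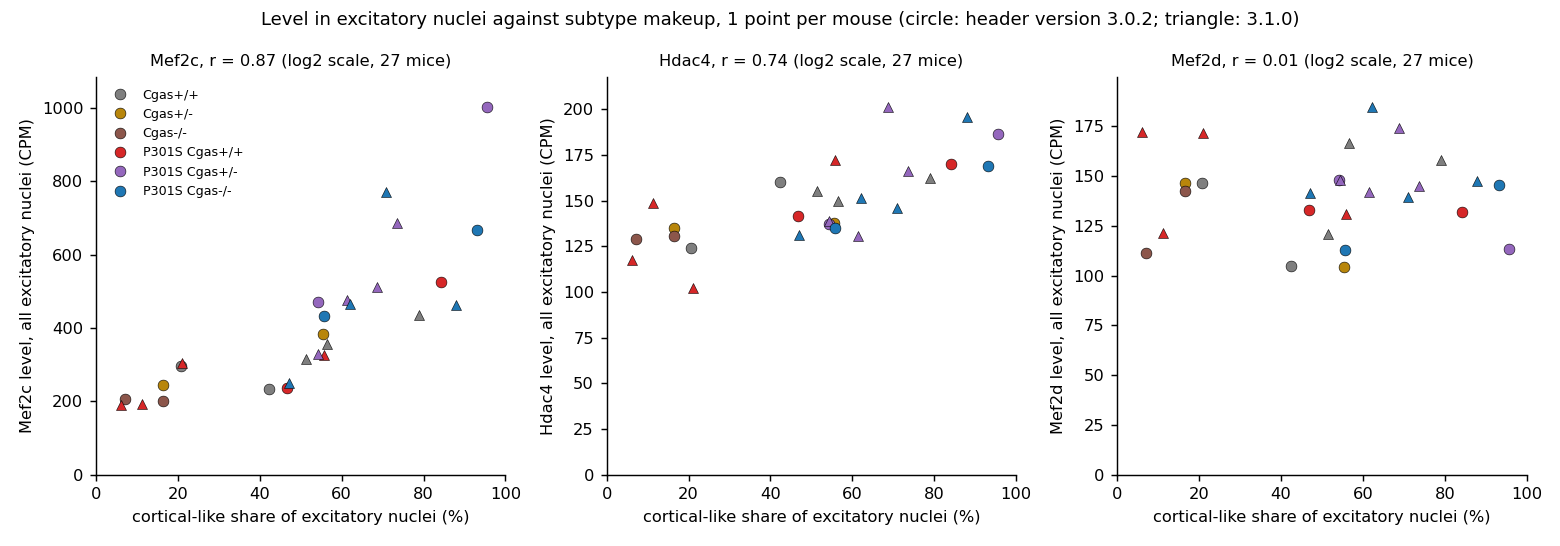
Level in all excitatory nuclei in CPM against the cortical-like share of those nuclei in percent, 1 point per mouse, coloured by group, with circles and triangles for the software version in the file headers. Mef2c climbs with the share (r = 0.872) over groups and versions.

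With the makeup by named subtype held the same in all mice, log2(CPM + 1) of Mef2c was averaged over subtypes, with the mean shares of the 27 mice as weights. P301S Cgas+/+ and Cgas+/+ then differed by 0.08 (exact permutation p = 0.422), P301S Cgas-/- and P301S Cgas+/+ by 0.26 (exact permutation p = 0.0931) and P301S Cgas+/- and P301S Cgas+/+ by 0.41 (exact permutation p = 0.0563). These p values are not adjusted. The subtype with no layer named held 24297 of 42831 cortical-like nuclei and pooled several subclusters. Their mixture was not held the same here. A mouse without enough nuclei of a subtype took the mean of the other mice there, which concerned up to 31.3% of the weight (P301S Cgas-/- replicate 2). With the weights rescaled over the subtypes each mouse had, an alternative chosen after seeing the data, the last 2 differences were 0.41 (exact permutation p = 0.0476) and 0.49 (exact permutation p = 0.0346). With each mouse's own makeup left as it was, the means of log2(CPM + 1) of Mef2c in excitatory nuclei differed by -0.21, 0.78 and 0.97. These values follow the order of comparisons used above and are a description with no test. How much of them the makeup alone would give was not tested.

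Within subtypes, the Mef2c levels of the 4 larger groups lay over one another in dentate granule nuclei. P301S Cgas+/+ mice ran from 322 through a median of 353 to 444 CPM (n = 6), P301S Cgas+/- mice from 352 through 373 to 418 CPM (n = 6), P301S Cgas-/- mice held 285, 324, 383, 386 and 402 CPM (n = 5) and Cgas+/+ mice 324, 325, 349, 369 and 399 CPM (n = 5). The Cgas+/- mice held 312 and 325 CPM and the Cgas-/- mice 353 and 382 CPM. The fitted log2 differences were 0.06, -0.05 and 0.00 for the tau comparison, for P301S Cgas-/- and for P301S Cgas+/- against P301S Cgas+/+. In CA1 nuclei, with far fewer Mef2c counts, they were -0.06, 0.08 and 0.33, and 2 of the 6 P301S Cgas+/- mice held 71.4 and 110 CPM. In all cortical-like nuclei together they were 0.09, 0.32 and 0.46 (edgeR, adjusted p = 0.720 for the last). The largest were in cortical layer 6 neurons, at 0.65, 1.1 and 1.5 (adjusted p = 0.483 for the last), where Mef2c also varied widely over mice. That set pooled subclusters of 4265, 3297, 2625 and 810 nuclei, whose mixture was not held the same between mice.

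Among interneurons, Mef2c is described for the Pvalb and Sst subtypes, and whether its group differences were unlike between these was not tested. The differences in Lamp5, Vip and Cck interneurons are not listed in the text. Pvalb interneurons, fast-spiking cells, had the highest Mef2c level among interneurons. There P301S Cgas+/+ mice ran from 917 through a median of 1065 to 1156 CPM (n = 6). P301S Cgas-/- mice ran from 935 through 1070 to 1202 CPM (n = 6). The 2 ranges lay over one another, and the log2 differences were -0.01, -0.02 and -0.04 (SE 0.11 for the last). In Sst interneurons the 5 P301S Cgas+/+ mice with enough nuclei held 179.7, 291, 328, 385 and 456 CPM, the Cgas+/+ mice 396, 411, 415, 469.6 and 524 CPM, and the P301S Cgas-/- mice ran from 399.5 through 492 to 580.2 CPM (n = 6). P301S Cgas+/+ mice lay mostly below both other groups with some overlap, and the differences were -0.40, 0.51 (edgeR, adjusted p = 0.208) and 0.40. Over the 12 neuron subtypes that could be fitted, 0 of 84 pairs of member and subtype passed in each comparison, beside 0.0101%, 0.00335% and 0.0209% of all gene tests called for the tau, P301S Cgas-/- and P301S Cgas+/- comparisons. At an unadjusted p under 0.05 there were 4, 7 and 8 pairs of 84, beside 3.06%, 5.44% and 6.46% of all gene tests, and DESeq2 called 0.

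**Figure D4:**
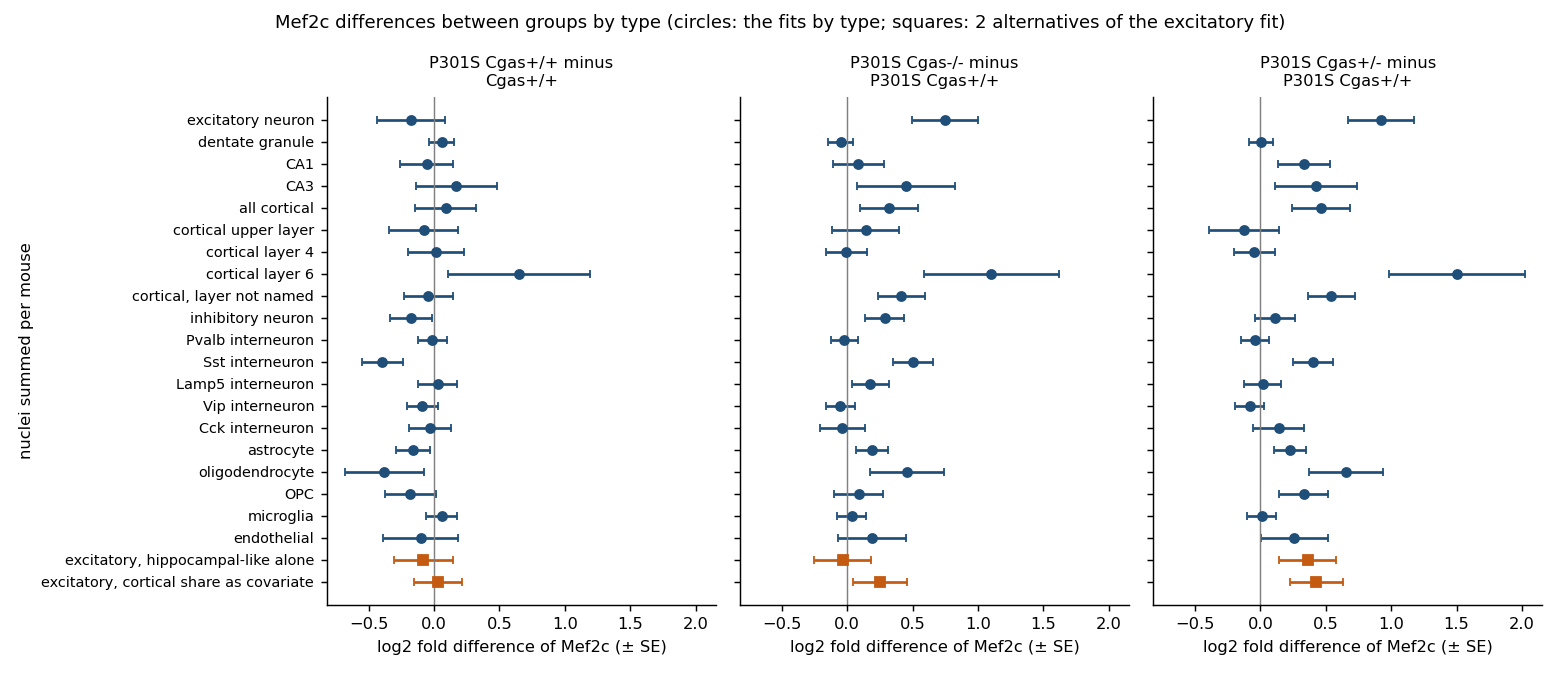
Log2 differences of Mef2c with SE in 3 comparisons, for each class or subtype (circles) and for excitatory nuclei under 2 alternatives (squares: hippocampal-like subtypes alone, and the cortical-like share as a covariate). The differences of 0.75 and 0.92 in excitatory nuclei stand beside -0.05 and 0.00 in dentate granule nuclei and beside -0.04 and 0.36 in hippocampal-like nuclei alone. Hippocampal-like nuclei are themselves a mixture that differs between mice.

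When the excitatory fit was restricted to hippocampal-like subtypes, Mef2c differed by -0.08, -0.04 and 0.36, and with the cortical-like share as a covariate by 0.03, 0.25 and 0.43. In microglia, the class with the most Mef2c per UMI, the differences were 0.06, 0.03 and 0.01. In oligodendrocytes, where Mef2c is low, they were -0.38, 0.46 and 0.65, with means of 68.5 CPM in P301S Cgas+/+ mice, 92.3 CPM with Cgas-/- and 107 CPM with Cgas+/-. Slc17a7, a transcript of excitatory neurons, averaged 32.9, 29.7 and 26.6 CPM in the same oligodendrocytes. How far neuronal RNA in these nuclei contributed to the Mef2c values was not tested.

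The other 6 members differed less between groups in excitatory nuclei. Between P301S Cgas+/+ and Cgas+/+ their log2 differences lay between -0.17 and 0.05. Hdac7 ran from 43.2 through a median of 61.7 to 68.9 CPM in P301S Cgas+/+ mice, from 63.7 through 70.5 to 91.9 CPM in P301S Cgas-/- mice and from 64.5 through 82.0 to 98.0 CPM in P301S Cgas+/- mice (n = 6 each). The ranges of both groups with fewer Cgas alleles overlapped that of P301S Cgas+/+ mice only at its upper edge and lay over one another, and the differences were 0.29 (SE 0.11, edgeR adjusted p = 0.260) and 0.42 (SE 0.11, edgeR adjusted p = 0.171). In hippocampal-like nuclei alone the first was -0.10. Hdac9 ran from 444 through 557 to 669 CPM in P301S Cgas+/+ mice, from 468 through 518 to 582 CPM in P301S Cgas-/- mice and from 384 through 461 to 562 CPM in P301S Cgas+/- mice, with differences of -0.13 and -0.30 (edgeR, adjusted p = 0.339 for the last).

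Outside excitatory nuclei, Hdac4 had log2 differences of -0.48 and -0.52 in Lamp5 interneurons (edgeR, adjusted p = 0.712 and 0.831 for P301S Cgas-/- and P301S Cgas+/- against P301S Cgas+/+) and of -0.37 and -0.34 in Pvalb interneurons (adjusted p = 0.332 for the first). Hdac9 differed by -0.52 between P301S Cgas+/+ and Cgas+/+ in oligodendrocytes (edgeR, adjusted p = 0.679), and its tau difference was below 0 in 17 of 19 classes and subtypes, which share mice. The share of all genes below 0 in those fits is not given here. Mef2a in astrocytes differed by 0.18 in the same comparison (edgeR, adjusted p = 0.342), the smallest adjusted p of any member in the 7 classes for the tau comparison. Mef2d had log2 differences between -0.28 and 0.38 in the 3 comparisons over all fits, and Hdac5 between -0.36 and 0.39.

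The groups of 2 mice allowed a comparison of Cgas-/- with Cgas+/+ without the transgene, in fits over all 27 mice. Mef2c in excitatory nuclei differed by -0.83 (SE 0.39, edgeR adjusted p = 0.646), a sign opposite to that with the transgene, and the difference between both effects, the interaction, was 1.56 (SE 0.46, adjusted p = 0.0798). In Sst interneurons the values were -0.84 (edgeR, adjusted p = 1.0) and 1.35 (adjusted p = 0.0854). The Cgas-/- mice had a cortical-like share of 7.09% and 16.4%. In all cortical-like nuclei the interaction was 1.0 (adjusted p = 0.482), in dentate granule nuclei -0.07 and in Pvalb interneurons -0.19. No member passed in these fits, beside 0% of all gene tests called for Cgas-/- against Cgas+/+ and 0.0742% for the interaction. Without the filter on low counts 3 pairs passed, all in Sst interneurons: Mef2c in both comparisons (edgeR, adjusted p = 0.0102 and 5.92e-06) and Hdac9 in the interaction (1.1, adjusted p = 0.00120), where 0.235% and 1.37% of all genes were called. At an unadjusted p under 0.05 there were 1 of 48 pairs in classes and 3 of 56 in subtypes for the first, beside 3.87% and 3.63% of all gene tests, and 5 and 5 for the interaction, beside 7.65% and 5.62%. Both Cgas-/- mice were males of software version 3.0.2, whereas 3 of the 5 Cgas+/+ mice were of version 3.1.0, so genotype and version cannot be fully told apart in this comparison. Cgas+/- against Cgas+/+ mice gave 0 calls in 48 pairs in classes and 0 in 77 in subtypes, beside 0% of all gene tests. The log2 differences lay between -1.31 and 0.30 in classes and between -0.63 and 1.69 in subtypes. Both Cgas+/- mice were males of version 3.0.2 as well.

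The partners of the 2 families were followed as lists: 23 kinases that phosphorylate the deacetylases or MEF2, 7 calcineurin genes, 7 14-3-3 genes, 12 corepressors and coactivators, 6 other histone deacetylases, 14 known MEF2 target genes of neurons and 21 MEF2C target genes that the study names in neurons. The study chose the last list on these samples, so its direction is not independent evidence. It names Elavl2, Slit2, Ctnnd2, Camk4, Kcnj9 and Kcnip2 of this list for inhibitory neurons. It reports the Eph receptor genes (Epha6 and Epha7 here) as lower after Cgas deletion. Among all list genes and fits, 1 gene passed in the tau, P301S Cgas-/- and P301S Cgas+/- comparisons: Dpp10, a regulator of potassium channels, was lower in Cck interneurons of P301S Cgas+/- than of P301S Cgas+/+ mice by a log2 of -1.18 (SE 0.23, edgeR adjusted p = 0.0194), where 0.0955% of all genes were called. In excitatory nuclei the sign was the opposite, with log2 differences of 1.06 (SE 0.39, edgeR adjusted p = 0.247) for P301S Cgas-/- and 1.07 (SE 0.39, edgeR adjusted p = 0.246) for P301S Cgas+/-, and neither passed. Without sex as a covariate, the call of Dpp10 in Cck interneurons was lost.

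In excitatory nuclei of P301S Cgas-/- against P301S Cgas+/+ mice, 14 of the 21 MEF2C target genes of the study had a positive difference, with a median log2 of 0.28, beside 0.01 over all genes, and 7 of 21 had an unadjusted p under 0.05, beside 13.6% of all genes. All 21 were counted together, including the genes named for inhibitory neurons and the Eph receptor genes. In hippocampal-like nuclei alone the list's median was -0.04 and 2 of 21 had an unadjusted p under 0.05, beside 3.90% of all genes, and with the cortical-like share as a covariate the median was 0.02 and 1 did, beside 4.26%. Of the 14 known MEF2 targets, 8 had a positive difference with a median of 0.08, and 7 had an unadjusted p under 0.05. The smallest p values in the study's list were those of Dpp10, given above, and of R3hdm2 at 0.39 (SE 0.16, edgeR adjusted p = 0.275). Among the known targets they were those of Pcdh10, a protocadherin of synapse elimination, at 0.55 (SE 0.16, edgeR adjusted p = 0.223), and Egr1, an immediate early gene, at 1.70 (SE 0.50, edgeR adjusted p = 0.223). In hippocampal-like nuclei the median of these targets was -0.08 and 2 had an unadjusted p under 0.05, and with the cortical-like share as a covariate the median was 0.07, with 8 of 14 above 0 and 2 at an unadjusted p under 0.05. For P301S Cgas+/- against P301S Cgas+/+ mice, Pcdh10 differed by 0.57 and Egr1 by 0.55 in excitatory nuclei (edgeR, adjusted p = 0.171 and 0.714). In that comparison 3 of the 14 known targets had an unadjusted p under 0.05, beside 12.7% of all genes. These differences again share the P301S Cgas+/+ mice and the makeup described above, and what the makeup contributed to each gene was not tested.

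Among the regulators, no gene passed, and those with the smallest unadjusted p in excitatory nuclei of P301S Cgas-/- against P301S Cgas+/+ mice are given with their log2 differences. For the kinases they were Camk2g at 0.29 (SE 0.10, edgeR adjusted p = 0.242) and Mapk11 at 0.77 (SE 0.27, adjusted p = 0.243), with 13 of 23 kinases above 0. Rcan2, which binds calcineurin, was at 1.36 (SE 0.44, edgeR adjusted p = 0.234) and Ppp3ca, a catalytic subunit of calcineurin, at -0.39 (SE 0.19, adjusted p = 0.375). Of the 6 14-3-3 genes tested, 2 were above 0 (Ywhah 0.22, Ywhaz -0.09). Of the 12 corepressors and coactivators, 4 were above 0 (Tbl1xr1 -0.22, Tbl1x 0.32), and of the 6 other histone deacetylases 5 were (Hdac11 0.15, Hdac2 0.09).

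In the edgeR fits as described, sex gave the only calls among the members. Females and males of the 4 larger groups were compared with group as a covariate, and 4 of 48 pairs of member and class and 3 of 98 pairs of member and subtype passed, beside 2.89% and 1.82% of all gene tests called. Mef2d accounted for 5 of the 7. In excitatory nuclei the 11 females held Mef2d from 121 through a median of 158 to 185 CPM and the 12 males from 105 to 148 CPM. Of the 11 females, 7 lay above the highest male, and the log2 difference was 0.32 (SE 0.07, edgeR adjusted p = 0.0118), where 2.14% of all genes were called higher in females. Mef2d was also higher in females in inhibitory nuclei (0.24, edgeR adjusted p = 0.0364), astrocytes (0.25, adjusted p = 0.0278), cortical layer 4 neurons (0.48, adjusted p = 0.0314) and cortical neurons with no layer named (0.28, adjusted p = 0.0253), where 2.39%, 2.08%, 2.87% and 5.12% of all genes were called in either direction. Its difference was above 0 in 21 of 21 fits, which share mice. The share of all genes above 0 in these fits is not given here. The other calls were Hdac4 in astrocytes (0.40, edgeR adjusted p = 0.0413) and Hdac5 in cortical layer 4 neurons (0.81, SE 0.17, adjusted p = 0.0123).

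The sexes also differed in how their files were made. The file headers give software version 3.0.2 for 8 of the 12 males and 3.1.0 for the other 4 males and all 11 females. Mef2d in excitatory nuclei averaged 129 ± 17.2 CPM in males of version 3.0.2 (SD, n = 8), 134 ± 10.5 CPM in males of version 3.1.0 (n = 4) and 157 ± 18.7 CPM in females (n = 11). In astrocytes the means were 90.7, 104 and 110 CPM, in inhibitory nuclei 104, 105 and 118 CPM, and for Hdac5 in layer 4 neurons 30.9, 37.0 and 52.5 CPM. With the version as a covariate no member passed, and Mef2d in excitatory nuclei differed by 0.20 (edgeR, adjusted p = 0.441), while the share of all genes called there fell from 7.94% to 0.0709%. Among the libraries of version 3.1.0 alone the difference was 0.19 (edgeR, adjusted p = 0.493) and no member passed, beside 0.0354% of all genes. With 8 of 12 males in a version that holds no female, sex and version cannot be told apart for those mice.

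**Figure D5:**
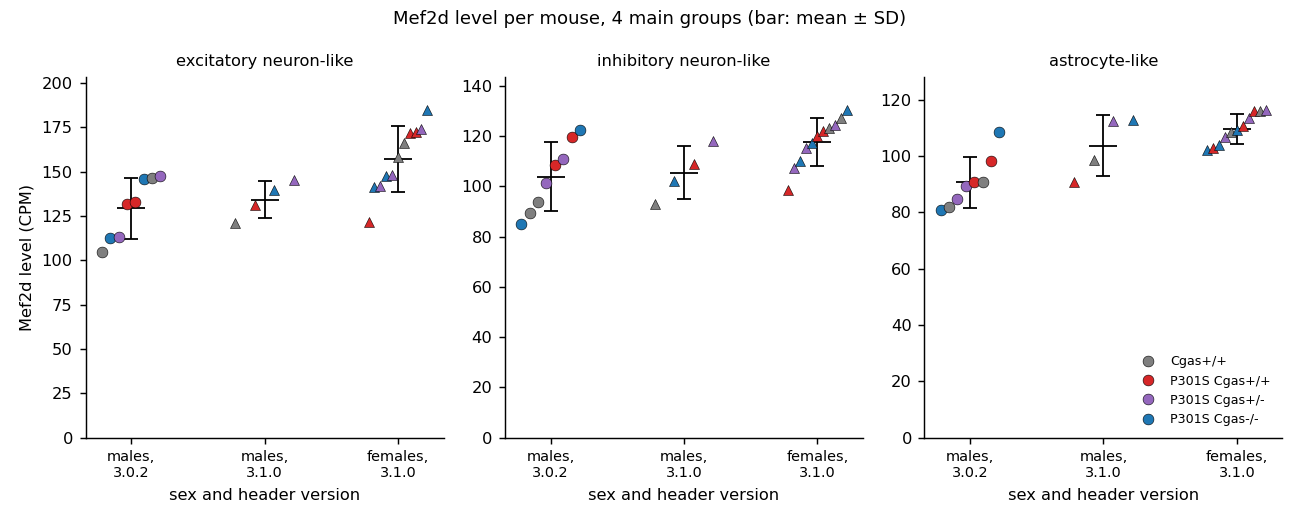
Mef2d level in CPM for each mouse of the 4 larger groups, split by sex and by the software version in the file headers, in excitatory nuclei, inhibitory nuclei and astrocytes (bars: mean ± SD). In excitatory nuclei the females average 157 CPM against 129 and 134 CPM in the males of the 2 versions, whereas in astrocytes the males of version 3.1.0 (104 CPM) lie nearer the females (110 CPM).

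Counted in either direction, calls by sex among the partners were about as frequent as, or less frequent than, among all genes. Over all classes and subtypes 2.21% of all gene tests were called, and 0.643% were called higher in females. Rcan1, a calcineurin regulator, was higher by a log2 of 0.36 in excitatory nuclei (edgeR, adjusted p = 0.00942). Sik2, a salt-inducible kinase that phosphorylates class IIa deacetylases, was higher by 0.37 in CA1 nuclei and by 1.02 in layer 4 neurons, and called in 4 subtypes. The kinases had 9 calls in 421 pairs of gene and fit, or 2.14% (Sik2, Sik3, Camk1g and Camk2b), calcineurin genes 3 in 138, or 2.17% (Rcan1 each time), 14-3-3 genes 2 in 122, or 1.64% (Ywhab and Ywhah), and the other deacetylases 0 in 108. All 14 were higher in females, and for these 3 lists with calls the shares lie above the 0.643% of all gene tests called in that direction. Whether they differ from it was not tested, and the pairs of a list share mice. Of the corepressor genes, Tbl1xr1 was called lower in females in layer 4 neurons. Of the known MEF2 targets Sgk1 and Nr4a1 were higher in layer 4 neurons and Pcdh10 lower in layer 6 neurons, and of the study's MEF2C targets Kcnab2 and R3hdm2 were higher and Slit2 lower. The same split of software versions runs through these calls.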

How the data were processed

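Nuclei were counted on 10x Genomics 3' v3 libraries, 1 per mouse. Per the submitters' processing notes, the authors ran Cell Ranger 3.1.0 against mm10 and Seurat 3.0 (the study's methods name a later Seurat), counting unspliced reads per the methods. The deposited values are whole UMI counts per gene and barcode, not normalized, and the file headers give software version 3.0.2 or 3.1.0. No annotation of nuclei was used. Barcodes with 200 to 4000 detected genes and no more than 5% of UMIs mitochondrial were retained, less those resembling simulated doublets (204852 of 241938), and clustered on 2000 variable genes and 30 components (igraph 0.11.9, Leiden resolution 1) without the members or pathway genes, and named from markers. Counts were summed per mouse and type of at least 20 nuclei. edgeR 4.0.16 (R 4.3.3; TMM, filterByExpr, robust quasi-likelihood, sex as covariate, Benjamini-Hochberg over all genes of a type) gave the comparisons over 23 mice, and DESeq2 1.42.0 was an alternative. The study tested nuclei with MAST and left out the groups of 2. Permutation tests were two-sided. Scripts were tested on simulated data. Members, lists and tests were chosen with earlier results of these data known. The 7 members and, of each list, the genes called, or the 2 with the smallest p, are named. The labels do not say whether mice shared litters or sorting days, and each mouse counts as 1 replicate, with a number that only names it. Barcodes in more than 1 library numbered 7324 of 234470. The calls by sex of 1 gene of the corepressor list are not reported here.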

Additional observations from a re-analysis of the deposited data

Results flagged for a closer look

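Of 59 groups of 4 to 10 mice examined for Mef2c and the other members, 4 held a mouse far from the rest by Dixon's criterion, which chance meets in about 1 in 20 groups. All 4 concerned Mef2c. Among Cgas+/+ mice the lowest in Pvalb interneurons held 967 CPM, with the next at 1102 CPM (n = 5). Among P301S Cgas+/+ mice the highest in dentate granule nuclei held 444 CPM, with the next at 359 CPM (n = 6). Among P301S Cgas+/- mice the highest in CA3 nuclei held 61.7 CPM, with the next at 28.1 CPM (n = 5). Among P301S Cgas-/- mice the highest in CA1 nuclei held 70.9 CPM, with the next at 41.4 CPM (n = 6).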

How the results depend on the processing

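Over the planned and added alternatives, 0 calls among members in the tau, P301S Cgas-/- and P301S Cgas+/- comparisons became 1 of 144 with DESeq2 (classes; 0.305% of all gene tests called) and 1 of 252 without the filter on low counts (subtypes; 0.435%). The 0 calls for Cgas-/- against Cgas+/+ and for the interaction, in the fits of 27 mice, became 3 of 210 without the filter (0.161%). List genes called, 1 of 4527 as reported (0.00817% of all gene tests), numbered 8 of 4446 with DESeq2 (0.19%), 69 of 5070 without the filter (0.291%), 0 without sex as a covariate (0.00528%) and 6 of 4360 with the groups compared fitted alone (0.0413%). The 7 calls by sex (2.21%) became 3 in P301S mice alone (0.915%), 0 with the software version as a covariate (0.113%) and 0 in the libraries of 1 version (0.0854%), and the 23 of 1649 of list genes became 13, 4 and 3, in that order. The cause of these changes was not tested.

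For P301S Cgas-/- against P301S Cgas+/+, the cortical-like share differed by 32.4 points without unnamed nuclei (exact permutation p = 0.0584) and by 8.92 and 43.5 points within versions 3.0.2 and 3.1.0. Signs turned for the tau difference of the share (34.0 points within version 3.0.2), for Mef2c in excitatory nuclei in the tau comparison (0.0308 with the share as covariate) and for P301S Cgas-/- (-0.0352 in hippocampal-like nuclei alone), for Hdac7 there (-0.10), and for Mef2c at fixed makeup in the tau comparison (-0.0364 over 3 subtypes). At fixed makeup, rescaled weights gave 0.41 and 0.49, and 3 subtypes 0.35 for P301S Cgas+/-, each with an exact permutation p under 0.05; these were chosen after seeing the data.

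Leaving out 1 mouse at a time was run for excitatory, inhibitory, astrocyte and dentate granule nuclei only, and gave 0 calls in the 3 comparisons. Mef2c in excitatory nuclei ranged from -0.32 to 0.0312 (tau; 0.0312 without Cgas+/+ replicate 3), 0.62 to 0.88 (P301S Cgas-/-) and 0.75 to 1.06 (P301S Cgas+/-). The share ranged from -21.8 to -5.18, 25.7 to 41.3 (exact permutation p = 0.0108 to 0.104) and 24.2 to 39.8 points. The last had an unadjusted p under 0.05 without P301S Cgas+/+ replicate 1 (exact permutation p = 0.00649). Mef2c at fixed makeup ranged from 0.02 to 0.13, 0.19 to 0.35 and 0.28 to 0.53. The second had an unadjusted exact permutation p under 0.05 without P301S Cgas+/+ replicate 1 or P301S Cgas-/- replicate 4. The third did without P301S Cgas+/+ replicate 1 or P301S Cgas+/- replicate 5. By sex, Mef2d kept its call in 23 of 23 repeats in excitatory nuclei (0.30 to 0.36), in 8 of 23 in inhibitory nuclei (0.20 to 0.26) and in 20 of 23 in astrocytes (0.23 to 0.28; lost without P301S Cgas+/- replicates 1 or 2 or Cgas+/+ replicate 3), and Hdac4 in astrocytes in 9 of 23 (0.33 to 0.46).

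No paired analysis was possible because the labels give no replicate numbers, and those used here follow accession order and pair no mice. Cortical layer 5 and near-projecting neurons came from too few mice for comparisons between groups. Hdac5 in endothelial nuclei fell below the count filter and was not tested.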
